A study of Mus musculus with 6 samples.

Results

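The 10 genes Itga4, Itga5, Itga8, Itga9, Itgav, Itgb3, Itgb5, Itgb6, Itgb7 and Itgb8 encode the integrin subunits through which cells bind fibronectin, vitronectin and related matrix or cell-surface ligands. They were chosen by name, with earlier results of these data known, from the 53801 gene identifiers counted in each library. All 10 were among the 14531 genes that passed the filter on low counts. RNA came from MC3T3-E1 cells, a mouse calvarial pre-osteoblast line, and the comparison asks which transcripts differ after Hdac4, a class IIa histone deacetylase, is lowered in these cells. The Control group (3 libraries) carried a lentivirus with a scrambled, non-silencing RNA, and the Hdac4-knockdown group (3 libraries) carried the same vector, pGMLV-HU6-MCS-CMV-ZsGreen1-PGK-Puro, with a short hairpin against Hdac4 that the labels call Hdac4-shRNA and the study's text Hdac4-shRNA3. Cells of both groups were selected with 5 μg/ml puromycin for 7 days. The 3 RNA samples of a group are described as independent and as biological replicates of stably infected cells, without saying whether they came from separate infections, so p-values measure the spread between these samples, which may be partly technical. With 1 hairpin, the effect of lowering Hdac4 cannot be told apart from other effects of that hairpin.

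Reads counted on genes numbered 29096544 to 31651826 per library. Genes with at least 1 count numbered 19373 to 19797 in Control and 22148 to 22640 in Hdac4-knockdown libraries, and reads outside genes made up 3.17 to 3.41% and 4.64 to 5.07%. Hdac4 itself lay at 40.3 ± 0.412 CPM (counts scaled to the normalized library size; mean ± SD, n = 3) in Control and at 29.6 ± 0.981 CPM in Hdac4-knockdown libraries, 73.6% of the Control level (log2 fold change -0.44, SE 0.057, adjusted p = 8.98e-07), although 22.4% of its exon bases are shared with Gm26720. A gene was called when its adjusted p in edgeR's quasi-likelihood test with Benjamini-Hochberg adjustment was below 0.05 and its log2 fold change beyond 0.05 in size. By this rule 75.1% of all genes tested were called, 38.0% of them all as higher and 37.1% as lower in Hdac4-knockdown, so that most genes were called. Of the 9 osteoblast markers examined, Runx2, Col1a1, Col1a2 and Spp1 had at least 1954 counts in every library. Alpl had at most 3, Bglap at most 12 and Ibsp at most 7 counts in any library of either group. Dmp1 had 101 to 113 counts in Control and 644 to 659 in Hdac4-knockdown libraries, and Sp7 had 2 to 7 and 68 to 112.

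Integrins are heterodimers of an alpha and a beta subunit that join the extracellular matrix to the actin cytoskeleton. The alpha5 subunit pairs with beta1 to form the classical fibronectin receptor of fibroblasts and osteoblasts, and alphaV pairs with beta1, beta3, beta5, beta6 or beta8 to form receptors that recognise the RGD motif of vitronectin, fibronectin and osteopontin or of latent TGF-beta. Alpha8 with beta1 binds nephronectin, alpha9 with beta1 binds tenascin-C and VCAM-1, and alpha4 pairs with beta1 or beta7 to bind VCAM-1, MAdCAM-1 and a non-RGD site of fibronectin. Because several subunits share partners, the level of a transcript does not give the amount of any dimer, and neither dimers nor protein were measured here.

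Promoter windows from 250 bases before to 50 bases after the RefSeq transcription start (assembly GRCm38.p6) were matched for 9 of the 10 genes, with 10 windows in all, since Itgb6 has 2. Itgb3 has no entry in the table used. The 4 windows printed here belong to the genes whose values the results turn on, namely Itga8, which was near 0 in Control cells, Itga4, which was lower in the knockdown, and the beta genes Itgb5 and Itgb7, which were both well expressed and changed in opposite directions. Each reads 5′ to 3′ on the strand of the gene, and capitals mark matches on either strand to the GC box GGGCGG, the core of sites bound by Sp1-family factors.
Itga8, chr2:12301895-12302194, minus strand: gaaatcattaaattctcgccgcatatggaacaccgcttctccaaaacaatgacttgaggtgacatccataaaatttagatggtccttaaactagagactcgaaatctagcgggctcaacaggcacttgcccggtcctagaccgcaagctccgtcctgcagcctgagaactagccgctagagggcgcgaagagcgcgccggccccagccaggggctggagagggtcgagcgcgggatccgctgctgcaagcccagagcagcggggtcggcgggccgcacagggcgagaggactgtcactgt
Itga4, chr2:79255176-79255475, plus strand: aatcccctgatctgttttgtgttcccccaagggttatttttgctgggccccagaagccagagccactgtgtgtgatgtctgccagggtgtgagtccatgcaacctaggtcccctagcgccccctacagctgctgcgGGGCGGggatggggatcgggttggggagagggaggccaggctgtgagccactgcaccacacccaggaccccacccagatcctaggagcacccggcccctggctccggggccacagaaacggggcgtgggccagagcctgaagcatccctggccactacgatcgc
Itgb5, chr16:33829415-33829714, plus strand: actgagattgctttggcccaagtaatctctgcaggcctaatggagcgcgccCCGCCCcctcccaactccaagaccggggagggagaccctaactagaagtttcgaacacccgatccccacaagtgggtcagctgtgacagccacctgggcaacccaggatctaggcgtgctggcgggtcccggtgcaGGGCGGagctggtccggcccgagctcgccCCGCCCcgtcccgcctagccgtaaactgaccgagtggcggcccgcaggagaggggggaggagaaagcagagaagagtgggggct
Itgb7, chr15:102231886-102232185, minus strand: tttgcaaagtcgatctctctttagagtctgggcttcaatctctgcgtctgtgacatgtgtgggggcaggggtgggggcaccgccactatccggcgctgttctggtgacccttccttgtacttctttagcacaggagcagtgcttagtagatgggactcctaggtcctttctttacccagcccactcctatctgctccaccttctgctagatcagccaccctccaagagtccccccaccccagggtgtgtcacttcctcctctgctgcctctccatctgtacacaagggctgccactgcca
The GC box occurred 3 times in the Itgb5 window, 2 times in that of Itga5 and once in those of Itga4 and Itgav, and it was not found in the windows of Itga8, Itga9, Itgb6, Itgb7 and Itgb8. It occurred in 35.7% of the 32851 windows of all genes. The 4 genes with a match were Itgb5 (log2 fold change 1.54), Itgav (0.18), Itga5 (0.03, not called) and Itga4. Itga4 was lower but passed the filter through the Control libraries only and so had to differ. With so few genes, these windows cannot tell whether the motif goes with a direction. No window of the 9 genes held the TATA box TATAAA, which occurred in 13.6% of all windows, or a match to the MEF2 site, the element of the factors that class IIa deacetylases bind, which occurred in 3.19%. Itga8 had 23 CpG dinucleotides in its window and Itgb7 had 5, against a median of 7 over all windows. Itgav had 24, Itgb5 had 20, Itga5 and Itgb8 had 13, Itga4 and Itga9 had 10, and the Itgb6 windows had 12 and 3. The Itga9 window lies 105002 bases inside the gene as GENCODE M21 draws it, the second Itgb6 window 48950 bases inside and that of Itgb8 526 bases inside, so they describe the RefSeq start only.

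Of the 10 integrin genes, 9 were called, 6 as higher and 3 as lower in Hdac4-knockdown libraries, beside the 75.1% called over all genes. The 2 groups did not overlap in CPM for 8 of the 10, against 76.8% of all genes tested. Of these, 5 lay wholly higher and 3 wholly lower in the knockdown, against 38.8% and 38.0% of all genes. Their median log2 fold change was 0.32 and their median size of change, whatever its sign, 1.42, against 0.01 and 0.46 over all genes. Beyond a log2 fold change of 1, 4 were higher and 3 lower, whereas 16.5% and 10.6% of all genes were. Itga4, Itga8 and Itga9 passed the filter through the libraries of 1 group only and so had to differ, so that counts over all 10 are a description and no p is given for these 3. Of the 7 others, 4 were higher, 2 were lower and 1 was not called, with a median size of 1.12. The summed CPM of the 10 genes was 770.1 to 809 in Control and 1073 to 1098 in Hdac4-knockdown libraries.

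**Figure D1:**
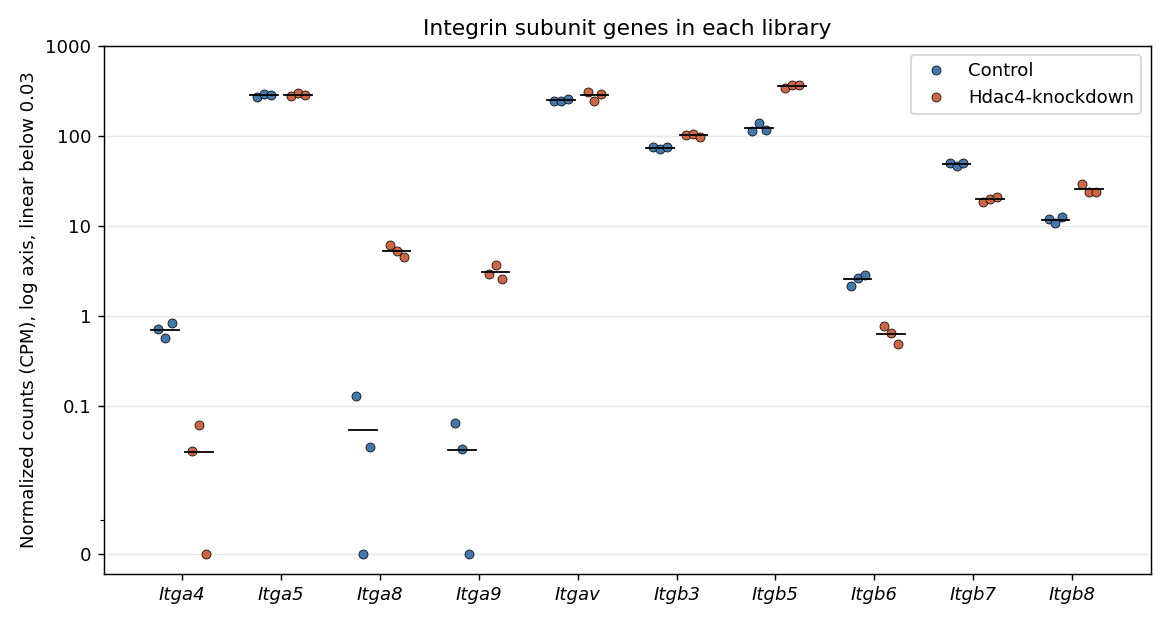
Normalized counts (CPM, log axis that is linear below 0.03) of the 10 integrin genes, with 1 point for each library and a bar at the mean of 3. Itga8 and Itga9 lie at or below 0.131 CPM in every Control library and above 2.5 in every Hdac4-knockdown library, whereas the groups overlap for Itga5 and Itgav.

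Among the alpha genes, the abundant fibronectin and vitronectin receptor subunits moved little. Itga5 (ENSMUSG00000000555, chromosome 15, 103344286 to 103366763, minus strand, 30 merged exons), the alpha chain of the classical fibronectin receptor, was at 272, 295 and 282 CPM in Control and 280.0, 299.8 and 285 CPM in Hdac4-knockdown libraries. The groups overlapped, and the difference was not called (log2 fold change 0.03, 95% interval -0.06 to 0.12, adjusted p = 0.554, two-sided exact permutation p = 0.6). Its sign turned to -0.01 without the first Control library and to -5.2e-05 with no filter on low counts, and under upper quartile normalization the gene was called at 0.12 (adjusted p = 0.0164). Itgav (ENSMUSG00000027087, chromosome 2, 83724397 to 83806916, plus strand, 32 merged exons), the shared alpha chain of the vitronectin receptors, was at 244, 243 and 260.5 CPM in Control and 311, 245 and 292 CPM in Hdac4-knockdown libraries. The second knockdown library lay within the Control range while the other two lay above it. The mean was 1.14 times the Control mean and the gene was called (log2 fold change 0.18, SE 0.0625, adjusted p = 0.0128, two-sided exact permutation p = 0.2). That call was lost without the first Control library (0.16, adjusted p = 0.0587), without the second (0.16, adjusted p = 0.0642) or without the first knockdown library (0.12, adjusted p = 0.0766), and the log2 fold change was 0.28 without the second knockdown library.

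The largest fold changes belonged to alpha genes that were barely transcribed in 1 of the groups. Itga8 (ENSMUSG00000026768, chromosome 2, 12106632 to 12301922, minus strand, 33 merged exons), the nephronectin receptor subunit, had 4, 0 and 1 counts in Control and 193, 169 and 136 counts in Hdac4-knockdown libraries. All 3 knockdown libraries were far above all 3 Control libraries, and their summed counts were 95 times higher after scaling by library (95% exact interval for counting error 40.5 to 294). The fitted log2 fold change was 6.47 (SE 0.380), and it was 7.97 without the first Control library, which held 4 of the 5 Control counts. Even so its level reached only 5.33 ± 0.863 CPM in the knockdown.

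Itga9 (ENSMUSG00000039115, chromosome 9, 118606690 to 118901003, plus strand, 32 merged exons), which encodes the tenascin-C and VCAM-1 receptor subunit, had 2, 1 and 0 counts in Control and 90, 120 and 77 counts in Hdac4-knockdown libraries. The groups were again wide apart, with summed counts 91.3 times higher in the knockdown (interval 30.9 to 445) and a fitted log2 fold change of 6.34 (SE 0.459), or 7.17 without the first Control library. More genes had counts in the knockdown libraries, and more of their reads fell outside genes, as given above, and the part of these differences in the values of Itga8 and Itga9 was not tested. Itga4 (ENSMUSG00000027009, chromosome 2, 79255426 to 79333123, plus strand, 27 merged exons), the subunit that pairs with beta1 or beta7, went the other way, with 22, 17 and 24 counts in Control and 1, 2 and 0 in Hdac4-knockdown libraries. The Control level was low too, at 0.710 ± 0.137 CPM, and Control over knockdown gave a ratio of 22.0 (interval 7.20 to 109.6, fitted log2 fold change -4.30, SE 0.627, or -5.12 without the second knockdown library). Since the reads carry no strand, exon bases shared with other genes make a count less certain. Itga4 shares 8.04% of its exon bases with Cerkl, which had at most 9 counts in any library, and Itga8 shares 5.05% with E030013I19Rik, which had at most 1. In bulk RNA, fewer cells that transcribe such a gene and less RNA per cell cannot be told apart.

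**Figure D2:**
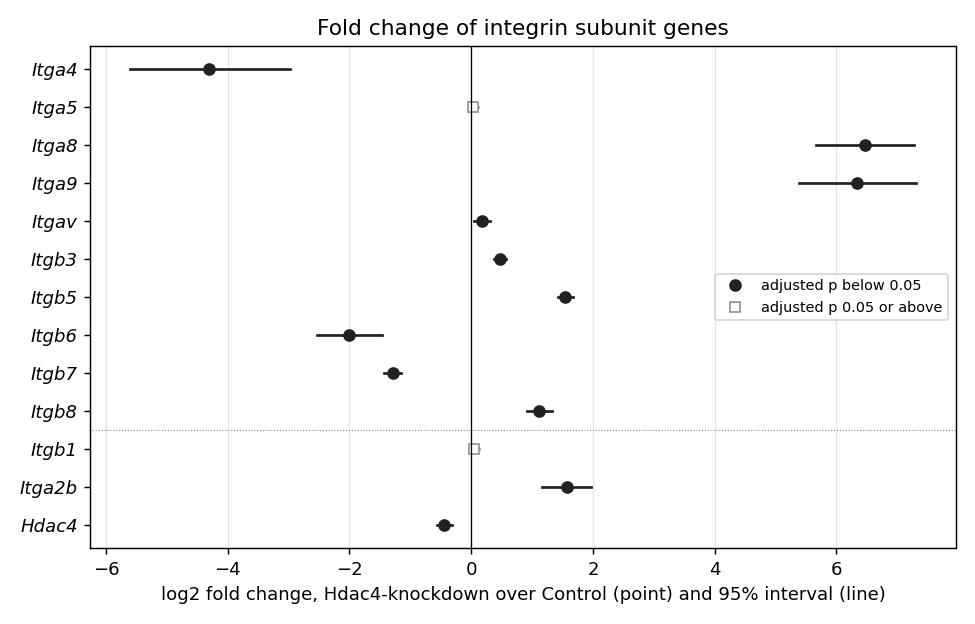
Log2 fold change (Hdac4-knockdown over Control, point) with its 95% interval (line) from edgeR's quasi-likelihood fit for the 10 integrin genes and, under the dotted line, for the partners Itgb1 and Itga2b and for Hdac4. Filled circles had an adjusted p below 0.05, which held for all but Itga5 and Itgb1. The intervals are widest for Itga4, Itga8 and Itga9. These 3 genes passed the filter through 1 group only and so had to differ, so their filled circles are no test result.

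Among the beta genes, those that pair with alphaV alone or in the main were higher in the knockdown, with Itgb6 as the exception. Itgb5 (ENSMUSG00000022817, chromosome 16, 33829665 to 33949338, plus strand, 18 merged exons), the beta chain of the alphaVbeta5 vitronectin receptor, was at 113, 139.8 and 117 CPM in Control and 343, 370.1 and 364 CPM in Hdac4-knockdown libraries. Every knockdown library exceeded every Control library by more than 200 CPM, with means 2.92-fold apart (log2 fold change 1.54, SE 0.0608, adjusted p = 1.02e-14). Itgb3 (ENSMUSG00000020689, chromosome 11, 104608000 to 104670476, plus strand, 16 merged exons), which forms the alphaVbeta3 receptor, was at 76.5, 71.2 and 75.2 CPM in Control and 104, 105 and 98.7 CPM in Hdac4-knockdown libraries. The groups did not overlap, but the difference was smaller, at 1.38-fold (log2 fold change 0.47, SE 0.0472, adjusted p = 2.98e-08).

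Itgb8 (ENSMUSG00000025321, chromosome 12, 119158022 to 119238802, minus strand, 14 merged exons) and Itgb6 (ENSMUSG00000026971, chromosome 2, 60598292 to 60722643, minus strand, 20 merged exons) both encode partners of alphaV in the receptors that activate latent TGF-beta. Itgb8 was at 11.9, 10.8 and 12.8 CPM in Control and 29.6, 23.7 and 24.0 CPM in Hdac4-knockdown libraries, so that all knockdown libraries were higher (2.17-fold, log2 fold change 1.12, SE 0.0937, adjusted p = 1.69e-09). Itgb6 was at 2.19, 2.67 and 2.88 CPM in Control and 0.776, 0.652 and 0.498 CPM in Hdac4-knockdown libraries, 4.02 times higher in Control with no overlap (log2 fold change -2.0, SE 0.257, adjusted p = 8.68e-07). The pair thus changed in opposite directions.

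Itgb7 (ENSMUSG00000001281, chromosome 15, 102215995 to 102231944, minus strand, 16 merged exons), best known as the leukocyte partner of alpha4 and alphaE, was well above the low-count range in these cells, at 49.8, 46.5 and 50.6 CPM in Control and 18.7, 20.1 and 21 CPM in Hdac4-knockdown libraries. All 3 knockdown libraries were lower, and the Control mean was 2.45 times theirs (log2 fold change -1.29, SE 0.0635, adjusted p = 3.67e-13). Its alpha partners were scarce, as Itga4 had at most 24 counts and Itgae at most 15 counts in any library. Each of the 5 beta genes gave a two-sided exact permutation p of 0.1, the smallest that 3 libraries against 3 allow.

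Itgb1, the beta chain shared by alpha4, alpha5, alpha8, alpha9 and alphaV, was at 1168, 1172 and 1195 CPM in Control and 1263, 1143 and 1249 CPM in Hdac4-knockdown libraries. The groups overlapped and the gene was not called (log2 fold change 0.05, 95% interval -0.04 to 0.13, adjusted p = 0.284). It was called at 0.11 with library size alone (adjusted p = 0.0233), at 0.14 with upper quartile normalization (adjusted p = 0.00409) and at 0.09 without the second knockdown library (adjusted p = 0.0136). Itga2b, the platelet partner of beta3, was low in Control, at 1.5 ± 0.321 CPM, and higher in the knockdown, at 4.46 ± 0.639 CPM (log2 fold change 1.57, SE 0.195, adjusted p = 5.33e-07).

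Levels of different genes were compared as CPM per kilobase of merged exon. In Control cells Itga5 stood first at 57.3 ± 2.31 CPM per kb, followed by Itgb5 at 34.7 ± 4.08, Itgav at 23.2 ± 0.913, Itgb7 at 17.7 and Itgb3 at 12.6. Itgb8 (1.07 CPM per kb), Itgb6 (0.363) and Itga4 (0.0508) followed, and Itga8 and Itga9 came last, at 0.00751 and 0.00428 CPM per kb, without differing beyond their spread. In Hdac4-knockdown cells Itgb5 led at 101 ± 3.93 CPM per kb, ahead of Itga5 at 58.4 ± 2.07 and Itgav at 26.3 ± 3.21. Itgb3, at 17.4 CPM per kb, then stood above Itgb7, at 7.21, the reverse of their order in Control, and Itga8 (0.724) and Itga9 (0.398) stood above Itgb6 (0.0903) and Itga4 (0.00225).

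These levels give the make-up of each class, as a description without a test. Among the 5 alpha genes, Itga5 supplied 71.1 ± 1.21% of the summed level per kb in Control and 68.1 ± 3.31% in Hdac4-knockdown libraries, and Itgav 28.8 ± 1.2% and 30.6 ± 3.36%. Despite their fold changes, Itga8 and Itga9 supplied only 0.842 ± 0.130% and 0.464 ± 0.0957% of the alpha level in the knockdown. The beta class changed more, since with Itgb1 included the share of Itgb5 went from 9.75 ± 1.10% to 23.7 ± 1.51%, that of Itgb7 from 4.98 ± 0.234% to 1.69 ± 0.113%, and that of Itgb1 from 81.3 ± 0.704% to 69.9 ± 1.71%. The ratio of Itgb5 to Itgb3 per kb was 2.45, 3.26 and 2.58 in Control and 5.46, 5.86 and 6.12 in Hdac4-knockdown libraries, which did not overlap. The ratio of Itgb8 to Itgb6 was 3.50, 2.60 and 2.86 against 24.5, 23.4 and 30.9, while that of Itgav to Itga5 overlapped between groups, at 0.412, 0.379 and 0.424 against 0.511, 0.375 and 0.471.

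**Figure D3:**
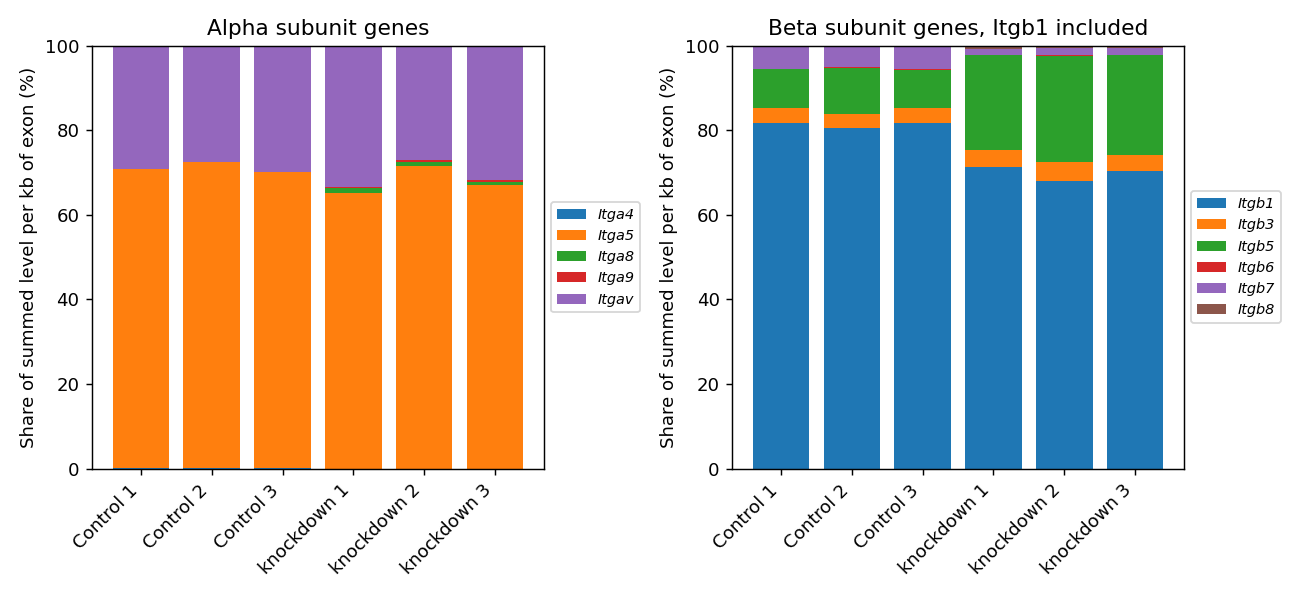
Share (%) of each gene in the summed level per kb of exon, for the 5 alpha genes (left) and for the 5 beta genes with Itgb1 (right), with 1 bar for each library. Itgb5 takes a larger share of the beta level in all 3 Hdac4-knockdown libraries (23.7% on average against 9.75%), and the genes with shares below 1%, such as Itga4 and Itgb6, are hardly visible.

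The ligands of these receptors were called higher more often than lower. Of 25 ligand genes, 20 were tested, 14 of which were called higher, 5 lower and 1, Svep1, neither, and the median log2 fold change was 0.74, beside 38.0% called higher and 37.1% lower over all genes. Tnn, Madcam1 and Vwf passed the filter through the knockdown libraries only and so had to be higher. Of the 17 others, 11 were higher and 5 lower, with a median of 0.29. Fn1, which encodes fibronectin, went from 4065 ± 152 CPM to 7914 ± 252 CPM (log2 fold change 0.96, SE 0.0374, adjusted p = 8.51e-15). Vtn, which encodes vitronectin, was not transcribed at a level that could be tested, with 3 counts in the first knockdown library and 0 counts in the 5 others. Vitronectin is a plasma protein made mainly in liver and is present in serum, which these counts do not measure.

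Other matrix ligands showed the extremes. Postn, which encodes periostin, a ligand of alphaV integrins, went from 11.9 ± 0.908 to 357 ± 10.2 CPM (log2 fold change 4.91, SE 0.057, adjusted p = 8.83e-23). Tnn, which encodes tenascin-W, had 2, 5 and 1 counts in Control and 198, 208 and 205 counts in Hdac4-knockdown libraries (fitted log2 fold change 6.12, or 6.89 without the second Control library), and Fbln5, which encodes the elastic fibre protein fibulin-5, went from 4.88 ± 0.542 to 64.0 ± 2.22 CPM (3.71, adjusted p = 4.67e-19). Ligands of alpha8 and alpha9 differed among themselves in direction. Npnt, which encodes nephronectin, a ligand of alpha8, fell from 129 ± 2.66 to 17.6 ± 0.579 CPM (log2 fold change -2.88, SE 0.0522, adjusted p = 4.69e-20). Tnc, which encodes tenascin-C, a ligand of alpha9, fell from 364 ± 11.9 to 22.6 ± 0.752 CPM (-4.01, SE 0.0495, adjusted p = 1.71e-22). Spp1, which encodes osteopontin, a ligand of alphaVbeta3, alpha4 and alpha9, was also lower, at 3154 ± 30.9 against 2046 ± 36.1 CPM (-0.62, adjusted p = 1.82e-12), though 18.8% of its exon bases are shared with another gene. Among other ligands of alpha9, Vcam1 was higher (0.72, adjusted p = 2.22e-11). Emilin1 went from 24.2 ± 0.604 to 220.5 ± 14.3 CPM (3.19, adjusted p = 2.39e-20). Both were named after their values were seen, and Svep1, on the same ligand list, was not called (0.11, adjusted p = 0.284).

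Inside the cell, genes of the adhesion complex that binds integrin tails were called lower more often than higher. Of 30 genes, 28 were tested, and 19 were called lower, 6 higher and 3 (Tln2, Actn1 and Itgb1bp1) neither, and the median log2 fold change was -0.30, beside 37.1% called lower and 38.0% higher over all genes. The changes at the core were moderate, as Tln1, which encodes the integrin activator talin-1, went from 809 ± 32.3 to 561 ± 26.9 CPM (-0.53, adjusted p = 8.98e-10) and Ptk2, which encodes focal adhesion kinase, from 157 ± 3.12 to 114 ± 3.65 CPM (-0.46, adjusted p = 7.51e-09). The lowest fold changes were those of Lims2, which encodes the ILK partner PINCH-2, at 17.8 ± 0.0839 against 1.96 ± 0.141 CPM (-3.18, adjusted p = 1.63e-15), of Ptk2b, which encodes the kinase PYK2 (-1.46, adjusted p = 4.25e-14), and of Zyx, which encodes zyxin, at 496 ± 18.5 against 209 ± 5.46 CPM (-1.25, adjusted p = 6.03e-16).

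Among adhesion complex genes whose counts averaged 100 or more, the highest were Kank1, a talin-binding protein of the adhesion rim, at 7.37 ± 0.688 against 58.0 ± 3.55 CPM (log2 fold change 2.98, adjusted p = 1.48e-17), its relative Kank2 (0.34, adjusted p = 1.12e-06) and Sharpin, which encodes an inhibitor of integrin activation (0.30, adjusted p = 0.000206). Fermt3 and Parvg, named after their values were seen, are the blood-cell members of the kindlin and parvin families, and both were called higher from low levels, at 0.509 ± 0.255 against 1.13 ± 0.163 CPM for Fermt3 (log2 fold change 1.15) and 0.268 ± 0.147 against 1.91 ± 0.388 CPM for Parvg (2.81). Their widely expressed relatives Fermt2 and Parvb, also named afterwards, were lower (-0.75 and -0.77). Ilk, the kinase-like scaffold of the complex, had at most 9 counts and was not tested, but 89.7% of its exon bases are shared with Taf10 and Rrp8, so its count is uncertain.

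**Figure D4:**
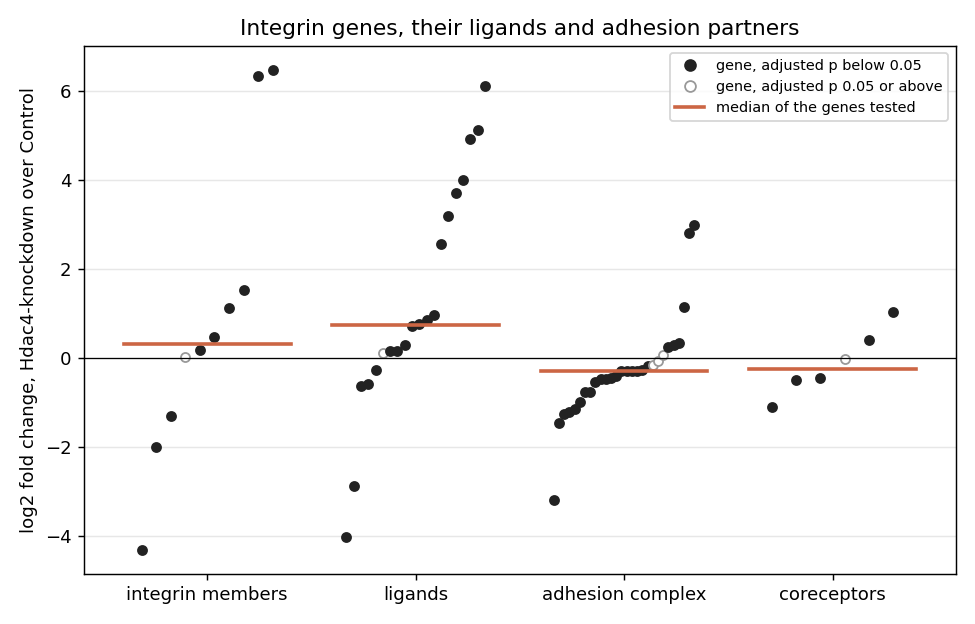
Log2 fold change (Hdac4-knockdown over Control) of each tested gene of 4 lists, with a line at the median of each list. The medians are 0.32 for the 10 integrin genes, 0.74 for 20 ligands, -0.30 for 28 adhesion complex genes and -0.24 for 6 coreceptors. Filled points had an adjusted p below 0.05. Itga4, Itga8, Itga9, Tnn, Madcam1 and Vwf passed the filter through 1 group only and so had to differ.

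Of 6 coreceptors that assist these integrins at the membrane, 2 were called higher and 3 lower (beside 38.0% and 37.1% of all genes, so that with 6 genes the count says little about the list). Sdc2, a syndecan heparan sulfate proteoglycan, went from 219 ± 9.56 to 449 ± 18.0 CPM (log2 fold change 1.04, adjusted p = 2.84e-14), and Sdc3 was higher by less (0.41, adjusted p = 7.5e-07). Sdc4, the syndecan that acts with alpha5beta1 on fibronectin, was lower (-0.44, adjusted p = 2.59e-07), as were Plaur, the urokinase receptor that binds vitronectin (-1.10, adjusted p = 1.41e-13), and Cd47, a partner of alphaVbeta3 (-0.49, adjusted p = 1.26e-07). Sdc1 was not called (-0.03, 95% interval -0.13 to 0.06).

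Several of these integrins are best known from other cell types, whose markers were therefore summed in each library. Of 8 leukocyte markers 1, Csf1r, was tested, having passed the filter through the knockdown libraries only. Laptm5, Cd3e and Adgre1 had 0 counts in all libraries and Ptprc had at most 9. The sum was 0.262 to 0.456 CPM in Control and 1.03 to 1.29 CPM in Hdac4-knockdown libraries. Csf1r alone gave 0.147 and 0.686 CPM of it on average. Of 5 megakaryocyte and platelet markers, 3 (Itga2b itself, Gp1bb and Ppbp) were tested and called higher. Gp1bb overlapped between groups, at 0.785 to 1.30 against 1.26 to 2.33 CPM. Since 92.9% of its exon bases are shared with Sept5 and Gm49601, its count is uncertain. Gp9 and Pf4 had at most 1 count, and the sum of the 5 markers was 3.05 to 3.47 against 8.11 to 10.6 CPM. Of 6 osteoclast markers only Ctsk was tested, and it made up nearly all of sums of 2.35 to 2.81 against 74.7 to 82.6 CPM, with Calcr and Dcstamp at 0. Of 6 endothelial markers only Pecam1 was tested, again through the knockdown libraries only, with sums of 0.262 to 0.421 against 3.04 to 3.19 CPM and Emcn at 0. Of 7 epithelial markers, Krt14 was higher (5.62 ± 0.528 against 7.53 ± 0.769 CPM) and Krt8 was not called. Epcam had at most 2 counts and Esrp1 at most 1, too few to give a direction. Krt14 made up most of the sums of 5.93 to 6.87 against 7.63 to 9.06 CPM, so the sums describe that gene. The osteoblast list summed to 4772 to 4785 against 21449 to 22286 CPM, mainly through Col1a1 and Col1a2. Of the 6 tested markers, 5 were called higher and Spp1 lower (Sp7 was tested through the knockdown libraries only). Runx2, called higher at a log2 fold change of 0.19, overlapped between groups (65.3 to 74.6 against 73.0 to 82.9 CPM). The part of these shifts in the values of the integrin genes was not tested.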

How the data were processed

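RNA sequencing covered 6 libraries of MC3T3-E1 cells (3 Control, 3 Hdac4-knockdown), made from poly-A RNA with a kit that does not mark strand. The authors deposited 1 table of raw counts per library, not normalized, with a row for each Ensembl gene. The submitters' processing notes name FastQC, STAR 2.7.3a, HTSeq 0.12.4 and mm10, and the annotation and counting options are not given in the sources used here. Summary lines were left out, namely reads outside genes (3.17 to 3.41% in Control, 4.64 to 5.07% in Hdac4-knockdown libraries) and reads shared between genes (6.36 to 6.51% and 5.84 to 5.92%). Of 53801 identifiers, 53706 matched GENCODE M21 (GRCm38), which gave symbols, positions and merged exon lengths. Reads shared between overlapping genes were thus not counted for either.

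After TMM normalization and filterByExpr with default settings, edgeR 4.0.16 (R 4.3.3) gave the quasi-likelihood test of knockdown against Control. P-values of the 14531 genes kept were adjusted by the Benjamini-Hochberg method. Intervals are 95%. Those of ratios of summed counts are exact and cover counting error only. Exact permutation tests were two-sided and cannot go below p = 0.1 here. Chi-square per degree of freedom between libraries of a group was 3.23 to 8.36, so replicates differed beyond sampling noise. The same script was checked on simulated counts with changes planted in a small share of the genes. Most genes were called in the data, so that check does not cover their setting.

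Named are the 10 integrin genes, Hdac4, Itgb1, Itga2b, Itgae, Fn1, Vtn, Spp1, Tln1, Ptk2, Ilk and, from the ligand, adhesion complex and coreceptor lists, the called genes with the 3 highest and the 3 lowest fold changes whose counts averaged 100 or more over the libraries. The genes, lists and tests were chosen with earlier results of these data known, so lists are given as counts and medians without a test. The normalization was replaced by DESeq2 size factors, by library size alone or by the upper quartile. The filter was dropped (1 count over all libraries) or raised to 10 counts in each library. DESeq2 1.42.0 and limma-voom (limma 3.58.1) were run in place of edgeR, the replicate number was added as a block, calls were repeated at fold change limits of 0.5 and 1, and each library was left out in turn. Promoter windows came from RefSeq. Plots were made in matplotlib 3.10.9.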

Additional observations from a re-analysis of the deposited data

How the results depend on the processing

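Itgb3, Itgb5, Itgb6, Itgb7 and Itgb8 kept direction and call under every other normalization, filter and test and as each library was left out. Itga4, Itga8 and Itga9 kept their direction in every fit that gave them a value. They passed the filter through the Control libraries only (Itga4) or the knockdown libraries only (Itga8 and Itga9) and so had to differ. Their calls are therefore no test result. At least 10 counts in every library leaves Itga4, Itga8 and Itga9 without a value, so that 6 of 7 integrin genes were called. Their fitted log2 fold changes ranged from -5.12 to -3.78 for Itga4, from 5.90 to 7.97 for Itga8 and from 5.83 to 7.17 for Itga9, since counts near 0 leave the size uncertain. Itga5 gave -5.2e-05 with no filter, 0.12 with upper quartile normalization, and -0.01 to 0.06 as each library was left out. Itgav gave 0.12 to 0.28 as each library was left out, with the call lost in 3 of these fits, so that 8 to 9 integrin genes were called. The cause of these shifts was not tested.

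Stricter fold change thresholds lower the counts by construction, and at both 0.5 and 1 the integrin genes called were 7, without Itgb3 and Itgav. Beyond 0.5, 12 adhesion complex genes, 2 coreceptors and 6458 of all genes were called. Beyond 1, 9 ligands, 8 adhesion complex genes, 2 coreceptors and 3940 of all genes were called, against 10914 at 0.05.

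With the replicate number as a block, 9 integrin genes and 10964 of all genes were called. Deviations of same-numbered libraries from their group means correlated at -0.0111, 0.0270 and 0.0166, and 3 of 6 libraries correlated best with their own number. With 3 libraries in a group, these values cannot tell whether same-numbered libraries were handled together. The block changed no call of an integrin gene.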

Other observations

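The nearest tested genes on each side of the integrin genes varied in direction. Whether values of neighbouring genes are linked was not tested. The nearest tested neighbours of Itga8 were Mindy3, 45.3 kb away with a log2 fold change of -0.18, and Ankrd16, 316 kb away with 0.57, beside 6.47 for Itga8. Itga9 lies 24.2 kb from Golga4 (0.13) and 25.4 kb from Ctdspl (0.54), beside its own 6.34. Itgb5, at 1.54, lies 5.44 kb from Umps, which was not called (-0.01), and 58.1 kb from Heg1, which was lower (-1.04). Itgb7, at -1.29, lies 0.389 kb from Zfp740 (-0.25) and 2.99 kb from Rarg (0.37). Neighbours of Itga4 were Ube2e3 (-0.09, not called) and Itprid2 (-0.44), and those of Itgb6 (-2.0) were Pla2r1 (1.03) and Rbms1 (-0.44). Itgav lies between Zc3h15 (-0.35) and Fam171b (1.7), and Itgb3 (0.47) between Myl4 (-1.92) and Gm11639 (3.28). Itga5 lies between Zfp385a (0.9) and Nckap1l (-0.47, not called), and Itgb8 (1.12) between Sp8 (-1.23) and Gm6768 (-0.51, not called). Itga4 (-4.30) and Itgav (0.18) lie 4.39 Mb apart on chromosome 2, and Itga5 (0.03) and Itgb7 lie 1.11 Mb apart on chromosome 15.

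Among ligands of alpha4 and beta7 integrins, Vcam1 rose from 88.1 ± 2.58 to 145 ± 5.93 CPM (log2 fold change 0.72, adjusted p = 2.22e-11), and Madcam1 had 0, 2 and 0 counts in Control and 26, 38 and 22 counts in Hdac4-knockdown libraries. Spp1, also a ligand of alpha4, was lower (-0.62), so the ligands did not share a direction. Tgfb1 and Tgfb3, whose latent forms are bound by alphaVbeta6 and alphaVbeta8, had log2 fold changes of 0.17 and 0.76, beside -2.0 for Itgb6 and 1.12 for Itgb8. These ligands were named after their values were seen.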
